A study of Homo sapiens with 12 samples.

Results

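The 10 genes described here are grouped as the chain from TNF receptor 1 to the IkB kinases. They are the receptor TNFRSF1A, the adaptors TRADD and FADD, the kinase scaffold RIPK1 and the kinase MAP3K7 (TAK1) with its partner TAB2. The others are the 3 IKK subunits CHUK (IKK alpha), IKBKB (IKK beta) and IKBKG (IKK gamma, NEMO), and MAP3K14 (NIK), the kinase of the non-canonical branch. FADD serves the death branch of the receptor, so it and MAP3K14 are not steps of the direct route to IKK beta. The 10 genes were chosen by symbol for their place in the pathway and not by a measured value, though with earlier results of these data known. They are 10 of the 56634 rows of the count table. All 10 passed the filter on low counts that left 14822 genes for testing. RNA was sequenced in bulk from HEK293, an established human embryonic kidney line, as 12 libraries that make up 4 groups of 3 biological replicates, all collected 3 h after the first addition. The DMSO group received the vehicle alone at 0.1%, and the SnxB group was given Senexin B at 1 µM, which inhibits CDK8 and CDK19, the kinases of the Mediator complex. The TNF group had 1 h of vehicle and then 2 h of TNF-alpha at 10 ng/mL, and the TNF_SnxB group had the same 2 h of TNF-alpha after 1 h of Senexin B, with no washout stated. All groups are the same line, from ATCC per the labels, which name no engineered allele, and the treatments were given once, at 1 dose and 1 time, so no dose or time course can be read.

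When TNF-alpha binds TNFRSF1A, the receptor recruits TRADD, RIPK1 and ubiquitin ligases, and the ubiquitin chains built on RIPK1 draw in TAK1 through TAB2 and the IKK complex through IKBKG. IKK beta then phosphorylates the inhibitor NFKBIA (IkB alpha), which is degraded, and NF-kB enters the nucleus. NF-kB induces its own brakes, among them NFKBIA and the deubiquitinase TNFAIP3 (A20), while FADD with caspase 8 forms the death branch of the same receptor, and MAP3K14 with IKK alpha processes NFKB2. Control of the upstream steps is best known at the level of protein modification and turnover, which RNA counts do not measure.

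Promoter sequence is shown for the receptor and for RIPK1 and TAB2 as examples of the members, beside NFKBIA, which gave a large response to TNF-alpha. The RefSeq promoter table (GRCh38.p14) held entries for 8 of the 10 members, and IKBKB and TRADD had none. The 250 bases before each RefSeq start were searched on both strands for the 10-base NF-kB consensus. It was present for 1 of these 8 members (12.5%), TAB2, against 5 of the 6 IkB and NF-kB genes with an entry (83.3%), 16.2% of the tested genes and 11.8% of all genes in the table. Over all other pathway genes with an entry it was present for 19 of 52 (36.5%). The share of the members is near that of the tested genes and does not set them apart. The lists were chosen with earlier results of these data known. Each sequence runs 5′ to 3′ on the strand of the gene, in lower case, with matches to the consensus in capitals. The NFKBIA window is chr14:35404750-35404999 on the minus strand, with 1 match that starts 81 bases before the RNA start. The TNFRSF1A window is chr12:6342077-6342326 on the minus strand and the RIPK1 window, of the first of its RefSeq starts, chr6:3063717-3063966 on the plus strand, and neither held a match. The TAB2 window, of its second start, is chr6:149318050-149318299 on the plus strand, with 2 overlapping matches that start 102 and 101 bases before the RNA start, and the window of its first start (chr6:149317462-149317711) held none. A match is a description of the letters and not a measured binding site, and a window without a match says nothing of the factor elsewhere.
NFKBIA: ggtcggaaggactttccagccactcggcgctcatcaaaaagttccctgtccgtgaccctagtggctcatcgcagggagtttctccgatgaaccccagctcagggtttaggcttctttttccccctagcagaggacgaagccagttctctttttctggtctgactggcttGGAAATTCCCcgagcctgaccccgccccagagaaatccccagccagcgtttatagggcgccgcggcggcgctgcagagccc
TNFRSF1A: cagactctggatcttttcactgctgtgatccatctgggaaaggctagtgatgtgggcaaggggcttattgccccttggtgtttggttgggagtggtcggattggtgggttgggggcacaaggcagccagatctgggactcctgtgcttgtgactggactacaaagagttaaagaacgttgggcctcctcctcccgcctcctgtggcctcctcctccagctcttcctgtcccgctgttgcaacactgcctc
RIPK1: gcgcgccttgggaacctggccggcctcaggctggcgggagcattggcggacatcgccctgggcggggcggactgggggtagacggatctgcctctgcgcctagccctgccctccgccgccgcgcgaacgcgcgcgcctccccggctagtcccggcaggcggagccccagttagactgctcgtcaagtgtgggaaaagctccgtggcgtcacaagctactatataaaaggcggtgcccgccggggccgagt
TAB2: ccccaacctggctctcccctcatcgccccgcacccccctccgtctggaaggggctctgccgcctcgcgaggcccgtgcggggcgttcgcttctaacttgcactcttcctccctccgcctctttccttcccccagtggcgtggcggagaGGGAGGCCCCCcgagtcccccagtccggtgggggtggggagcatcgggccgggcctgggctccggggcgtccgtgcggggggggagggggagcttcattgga

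Library totals ran from 8705277 to 50943310 counts, with TNF library 2 the deepest, and 3 counts, the floor of detection, stood for 0.0595 to 0.342 CPM (counts scaled to library size with TMM factors). All 10 members lay well above this floor, from 1570 counts over the 12 libraries for IKBKG to 15934 for CHUK. The biological coefficient of variation was 3.49%. Per the labels the replicates are biological, but no source used here says what separated them, so p-values measure the spread between these libraries. TNF_SnxB libraries 2 and 3 stood apart from the others: their deviation from the gene means fell with the GC content of the transcripts across 13467 genes (Spearman -0.70 and -0.69, a description across genes, which are not independent), against -0.12 to 0.45 in the other 10 libraries and 0.14 in TNF_SnxB library 1. Calls that use the TNF_SnxB group are therefore given with and without these 2 libraries and with a correction for GC content and length. Of the other 10 libraries those of TNF had the highest values, at 0.40, 0.45 and 0.39. DMSO ran from -0.12 to 0.32 and SnxB from 0.12 to 0.25. Leaving out TNF_SnxB libraries 2 and 3 thus does not remove the difference in this trend between TNF and the other groups. Of the HEK293 markers, NEFL (49.1 CPM) and INA (38.4 CPM) were well expressed and NEFM (0.697 CPM) and PAX2 (0.663 CPM) were low. The 4 together summed to 98.4 to 99.3 CPM in DMSO, 77.7 to 87.9 in SnxB, 90.8 to 99.6 in TNF and 75.5 to 79.3 in TNF_SnxB. Summed marker levels of leukocytes (4 genes, at most 0.423 CPM, CD3E at 0) and endothelial cells (3 genes, at most 0.528 CPM, CDH5 at 0) were near the floor. Those of fibroblasts (3 genes, 0.997 to 2.24 CPM, DCN at 0) were low but above the floor, mostly from COL3A1 with 252 counts over the 12 libraries. In bulk RNA, fewer cells with a transcript and less RNA per cell cannot be told apart.

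All parts of the chain were expressed in vehicle-treated cells, from 2.56 to 25.2 CPM per kb. In the DMSO group, CPM per kb of the principal transcript (mean ± SD, n = 3) was highest for CHUK at 25.2 ± 1.05, followed by TAB2 at 17.7 ± 0.505 and MAP3K7 at 16.5 ± 0.297. The receptor TNFRSF1A stood at 13.6 ± 0.503, FADD at 10.4 ± 1.00 and RIPK1 at 9.89 ± 0.283. IKBKB had 7.65 ± 0.593, TRADD 5.55 ± 0.769, IKBKG 4.00 ± 0.299 and MAP3K14, the lowest, 2.56 ± 0.468. Among neighbours in this order only FADD and RIPK1 overlapped in their 3 DMSO libraries. Within the IKK complex, the transcript of the alpha subunit was thus above that of the beta subunit, and both were above that of the regulatory gamma subunit, but over the union of all annotated exons the beta (2.68 ± 0.208) and gamma (2.60 ± 0.195) subunits differed by less than their SD. The order of the first members and of FADD depends on the length used too: over that union TAB2 came first (13.4 ± 0.383) and CHUK second (13.2 ± 0.550), and FADD moved to the fourth place. Per kb of the principal transcript, the same 3 genes stayed at the top and MAP3K14 at the bottom in the other groups, while over the exon union FADD stood just above MAP3K7 in SnxB (11.5 and 11.4) and TNF (12.1 and 11.1). By the principal transcript, the neighbours that overlapped were TNFRSF1A with FADD and RIPK1 with IKBKB in SnxB, none in TNF, and RIPK1 with FADD and FADD with IKBKB in TNF_SnxB.

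**Figure D1:**
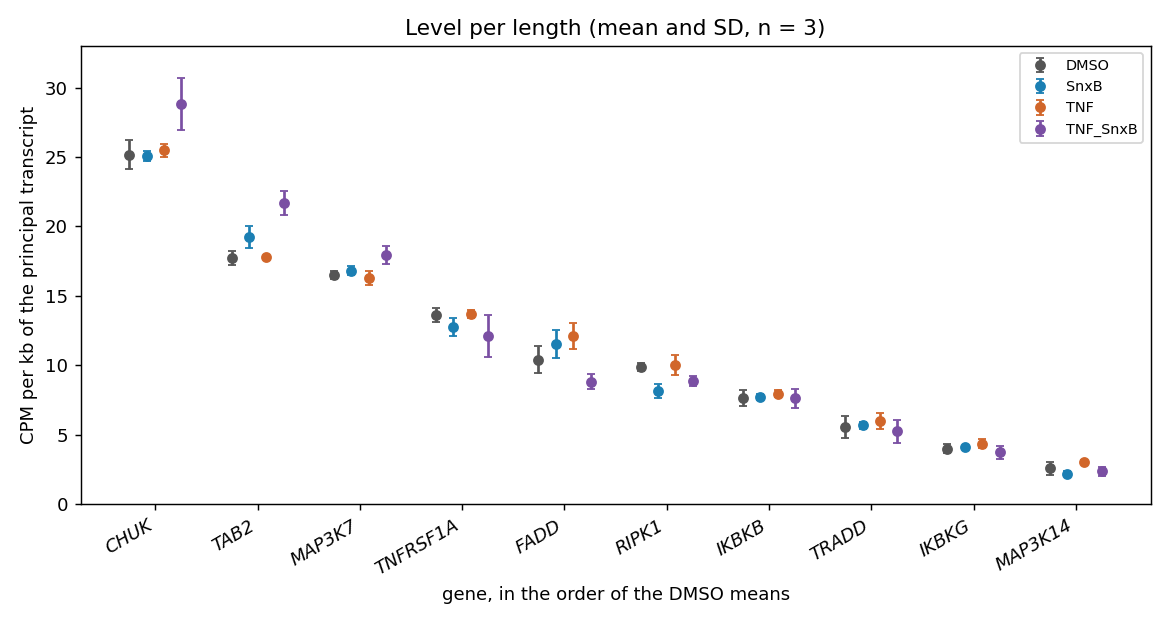
Mean level of each gene in CPM per kb of the principal transcript (y axis, linear from 0), with bars for the SD over 3 libraries, for the 4 groups in color and the genes on the x axis in the order of the DMSO means. CHUK is at the top with 25.2 in DMSO and MAP3K14 at the bottom with 2.56.

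Parts of some members cannot be told from overlapping genes, since the strand setting of the counting is not given in the sources used here. FADD shares 1011 exon bases with the antisense gene AP000879.1, and MAP3K14 shares 713 with MAP3K14-AS1, which had 101 counts. TRADD shares 126 with FBXL8 on the other strand, RIPK1 238 with AL031963.3 on the other strand, and CHUK 37 with ERLIN1 on its own strand. IKBKG has a near-identical copy, IKBKGP1, that took 5 counts, so the IKBKG values are uncertain.

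TNF-alpha left the RNA of all 10 genes without a called change, in cells in which the IkB and NF-kB genes below IKK rose up to 11.7-fold. The comparison of TNF with DMSO asks how the transcripts of the pathway respond to its own ligand within 2 h. Of the 10 members 0 passed an adjusted p of 0.05 in the edgeR quasi-likelihood test (Benjamini-Hochberg over all tested genes), 1 had an unadjusted p below 0.05 (1545 of the 14822 tested genes did), and DESeq2 called 0. Over all tested genes 2.02% were called, 1.43% higher and 0.594% lower, and with 858 genes (5.62%) called without TNF_SnxB libraries 2 and 3 the count of members was still 0. The members' log2 fold changes ran from -0.03 to 0.22, that is from 0.98-fold to 1.16-fold, and their 95% intervals reached from 0.892-fold to 1.36-fold at the widest. The median log2 fold change was 0.04 over the members and -0.00 over all tested genes.

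The receptor TNFRSF1A (chromosome 12, 6328757 to 6342114, minus strand, GRCh38) had 30.8, 29.1 and 31.1 CPM in the DMSO libraries and 30.2, 31.2 and 30.01 CPM in the TNF libraries. The values overlapped, with a log2 fold change of 0.01 (95% interval -0.13 to 0.16, adjusted p = 0.977 by edgeR). TRADD (chromosome 16, 67154180 to 67160298, minus strand), the adaptor that binds the receptor's death domain, had 10.9, 11.5 and 8.79 CPM in DMSO and 12.4, 10.3 and 11.0 CPM in TNF. Its groups overlapped too, and at about 10 CPM its interval was among the widest, 0.892-fold to 1.24-fold. RIPK1 (chromosome 6, 3063991 to 3115187, plus strand), the kinase on which the ubiquitin chains are built, had 40.4, 40.6 and 42.5 CPM in DMSO and 44.5, 42.0 and 38.5 CPM in TNF. The TNF libraries of RIPK1 lay on both sides of the DMSO libraries, and the log2 fold change was 0.02 (-0.11 to 0.14).

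FADD (chromosome 11, 70203163 to 70207390, plus strand), which links death receptors to caspase 8, had 19.9, 20.5 and 17.1 CPM in DMSO and 22.7, 20.4 and 23.7 CPM in TNF. TNF library 2 lay within the DMSO range, and the log2 fold change of 0.18 (0.01 to 0.36) had the lowest adjusted p among the members, 0.455 by edgeR. MAP3K14 (chromosome 17, 45263119 to 45317145, minus strand) had 10.5, 10.5 and 14.2 CPM in DMSO and 14.5, 13.5 and 13.5 CPM in TNF. A single DMSO library of MAP3K14 reached the level of the TNF libraries, and the log2 fold change of 0.22 (-0.01 to 0.44) had an adjusted p of 0.514.

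MAP3K7, TAB2 and CHUK had the narrowest intervals of the members. MAP3K7 (chromosome 6, 90513573 to 90587045, minus strand) had 79.3, 81.9 and 81.8 CPM in DMSO and 81.7, 77.1 and 81.0 CPM in TNF, and TNF-alpha moved it by no more than 0.916-fold to 1.05-fold at 95% confidence. TAB2 (chromosome 6, 149218641 to 149411613, plus strand), which binds the ubiquitin chains for TAK1, had 78.7, 80.1 and 83.2 CPM in DMSO and 80.9, 81.3 and 81.2 CPM in TNF. For TAB2 the interval was 0.940-fold to 1.08-fold. CHUK (chromosome 10, 100188298 to 100229619, minus strand) had 87.3, 91.4 and 94.9 CPM in DMSO and 90.5, 92.6 and 93.9 CPM in TNF, with an interval of 0.944-fold to 1.09-fold. The other IKK subunits had wider intervals and groups that overlapped. IKBKB, on chromosome 8, had 30.03, 27.8 and 32.5 CPM in DMSO and 30.2, 31.4 and 32.3 CPM in TNF (0.942-fold to 1.145-fold), and IKBKG (X chromosome, 154541199 to 154565046, plus strand) had 9.81, 9.31 and 8.45 CPM in DMSO and 10.9, 9.60 and 9.59 CPM in TNF (0.921-fold to 1.25-fold). In 0 of the 10 genes were the 3 TNF libraries all above or all below the 3 DMSO libraries, against 20.2% of the tested genes.

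**Figure D2:**
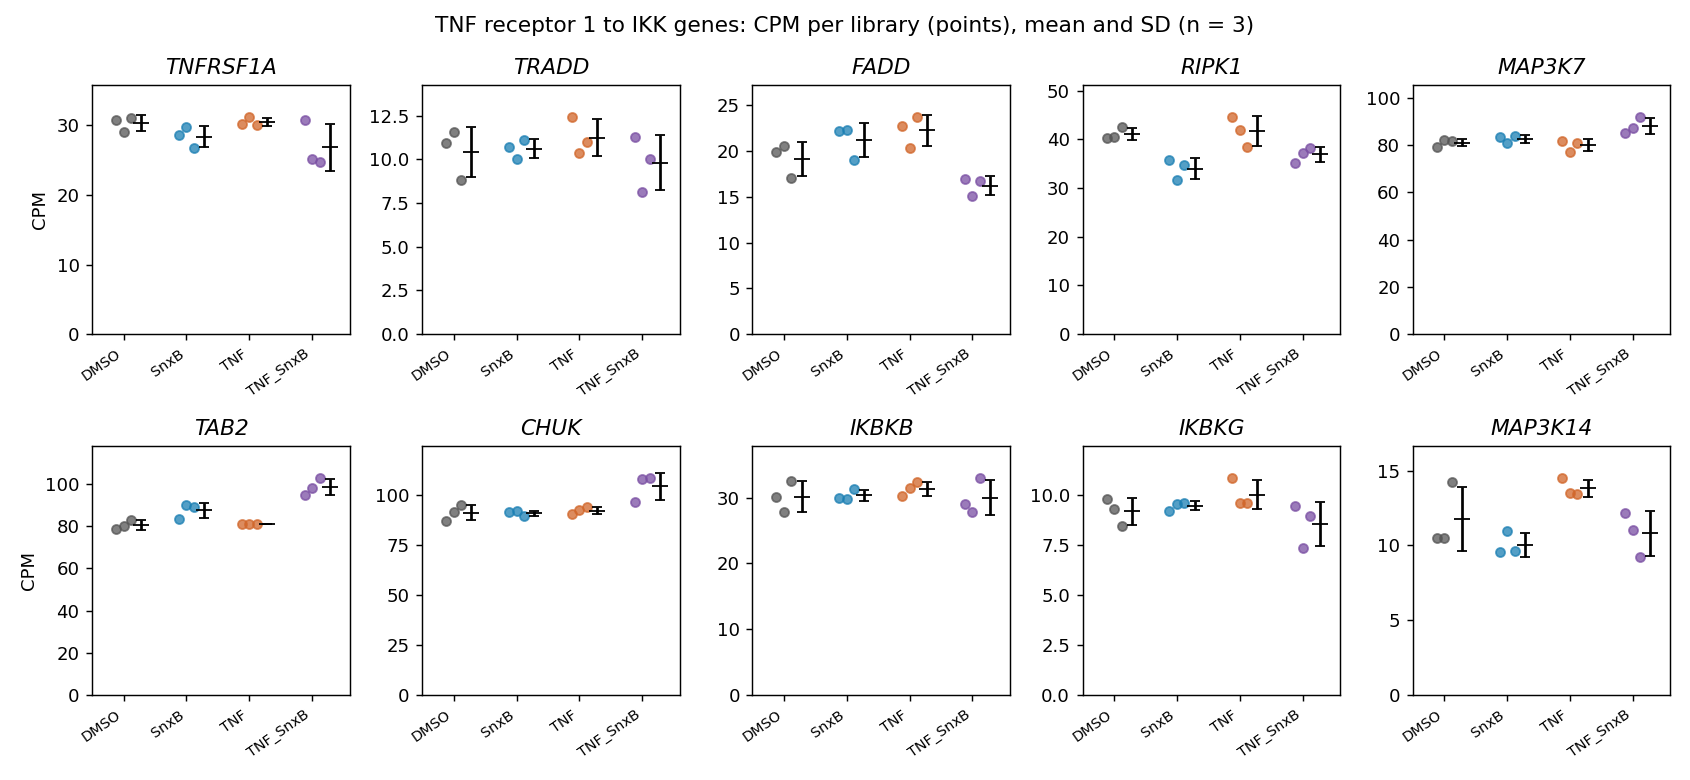
CPM of each of the 10 genes (y axes, linear from 0) in each library (points) by group (x axis), with the mean and SD over 3 libraries drawn beside the points. The DMSO and TNF points overlap in every panel, RIPK1 is lower in the SnxB libraries (31.6 to 35.7 CPM) than in the DMSO libraries (40.4 to 42.5 CPM), and TAB2 is highest in the TNF_SnxB libraries (94.8 to 103 CPM).

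Below IKK the response was large. NFKBIA had 25.2, 27.7 and 28.97 CPM in DMSO and 272, 271 and 269 CPM in TNF, a 9.93-fold rise (log2 3.31, SE 0.0585, adjusted p = 2.279e-26 by edgeR). RELB, an NF-kB subunit that pairs with processed NFKB2, rose 11.7-fold (log2 3.55) and NFKB2 itself 3.50-fold (log2 1.81). In all, 7 of the 8 IkB and NF-kB genes rose and 0 fell, with RELA as the exception at a log2 fold change of 0.12 (adjusted p = 0.339), and 1.43% of all tested genes rose. These genes are known targets of NF-kB, and their list was chosen with earlier results of these data known, so the count is a description.

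Between the receptor and IKK, the genes called as rising with TNF-alpha were regulators around the chain, and 0 of its 10 members were called. With 2.02% of all tested genes called, 0 of 10 is near that share and does not set the members apart. The intervals of FADD, MAP3K14, TRADD and IKBKG reached 1.28-fold, 1.36-fold, 1.24-fold and 1.25-fold. A rise as large as that of CYLD was thus not excluded for these genes. The lists of regulators were chosen with earlier results of these data known, so their counts are a description. Of the 11 deubiquitinases and ubiquitin-binding brakes 3 rose: TNFAIP3, which edits the chains on RIPK1, from 3.12, 3.85 and 4.14 CPM to 44.4, 41.9 and 41.4 CPM (11.4-fold, log2 3.51), TNIP1, a partner of TNFAIP3, by 1.35-fold (log2 0.44), and CYLD, another deubiquitinase of the pathway, by 1.21-fold (log2 0.27, adjusted p = 0.00501). CYLD was no longer called in 2 of 20 alternatives. Of the 11 ubiquitin ligases and their partners 2 rose: BIRC3 (cIAP2), a ligase for RIPK1, from 2.00, 2.13 and 3.19 CPM to 12.3, 11.3 and 12.3 CPM (4.76-fold, log2 2.25), and TRAF3, a part of the complex that degrades MAP3K14, by 1.54-fold (log2 0.62). Of the 9 TAK1 partners and parallel kinases 1 rose, MAP3K8 (TPL2), by 3.06-fold (log2 1.61). Of the ligands and receptors 1 of 7 could be tested, and TNFRSF12A, the receptor of TWEAK, rose 1.37-fold (log2 0.46). The other 6 had 6 to 94 counts over the 12 libraries, among them TNFRSF1B, the second TNF receptor, with 6, and LTBR, a receptor upstream of MAP3K14, with 21. None of the 8 IKK-related kinases and chaperones was called (2 at an unadjusted p below 0.05, 0 by adjusted p), nor any of the 4 tested genes of the death branch (CASP8, CASP10, CFLAR and MLKL, 0 at an unadjusted p below 0.05). Together 14 of the 52 tested pathway genes outside the chain rose and 0 fell, and DESeq2 also called 14.

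**Figure D3:**
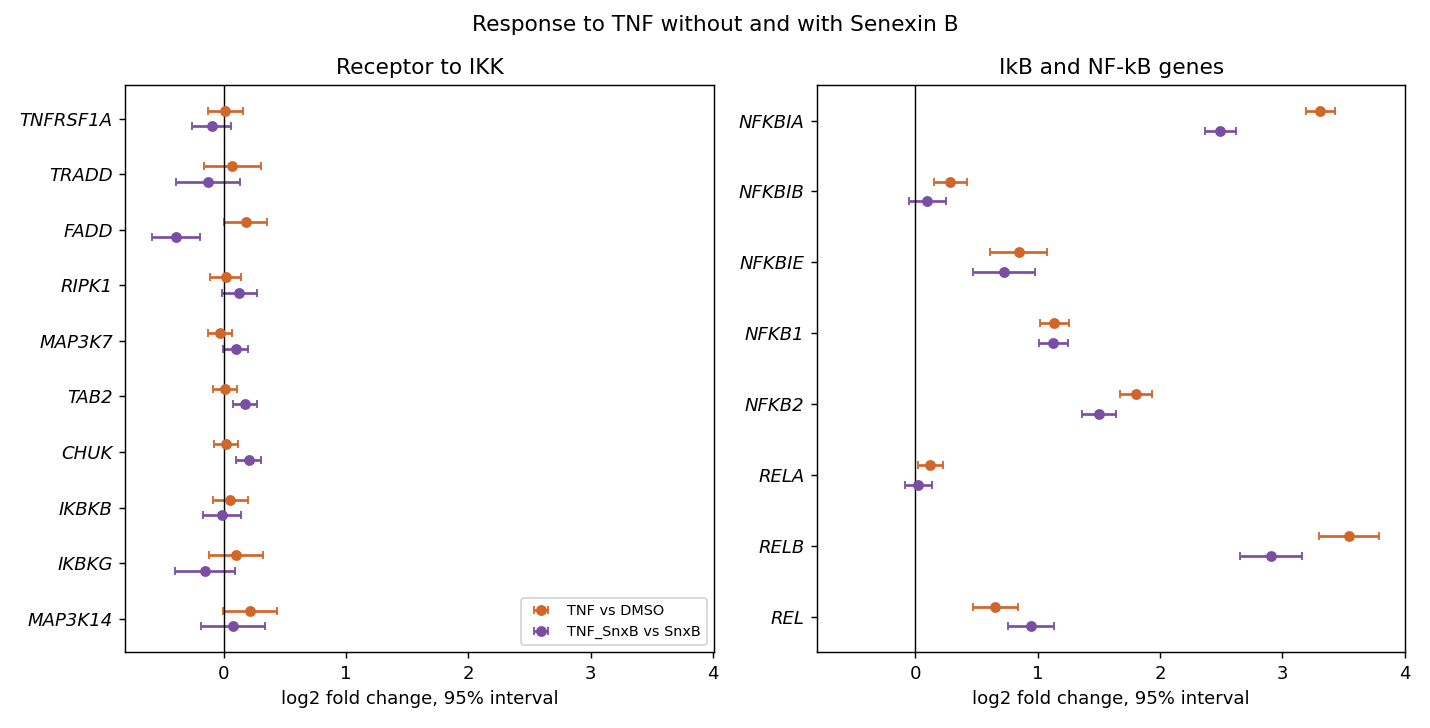
Log2 fold change with its 95% interval (x axes) for TNF against DMSO and for TNF_SnxB against SnxB, for the 10 genes from the receptor to IKK (left) and the 8 IkB and NF-kB genes (right) on 1 scale. The genes on the left lie between -0.39 and 0.22, while NFKBIA and RELB on the right reach 3.31 and 3.55 without Senexin B and 2.49 and 2.91 with it.

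Senexin B alone lowered RIPK1 and no other member was called. In SnxB against DMSO, which asks what the inhibitor does to the chain before TNF-alpha is added, RIPK1 had 35.7, 31.6 and 34.7 CPM in SnxB, all below the 40.4, 40.6 and 42.5 CPM of DMSO. Its log2 fold change was -0.28 (SE 0.0693), or 0.824-fold with a 95% interval of 0.747 to 0.909, with an adjusted p of 0.0250 by edgeR and 0.0337 by DESeq2. This was 1 called member of 10, where 2.03% of all tested genes were called and 1.69% were lower. RIPK1 was called in 15 of 20 alternatives. Among them were the GC and length correction (adjusted p = 0.00256, with 5.11% of all tested genes called) and the fit without TNF_SnxB libraries 2 and 3 (0.00143, with 5.66%). It missed the threshold without DMSO library 1, 2 or 3 (adjusted p = 0.0660, 0.0603 and 0.130) and without SnxB library 2 or 3 (0.240 and 0.0746), while its log2 fold change stayed between -0.31 and -0.23 over the 20 alternatives. A drop in RIPK1 RNA within 3 h says nothing of the amount of RIPK1 protein.

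TAB2 was the other member whose SnxB libraries did not overlap with DMSO, at 83.5, 90.0 and 89.2 CPM against 78.7, 80.1 and 83.2 CPM. Its log2 fold change of 0.12 (0.02 to 0.22) did not pass the test (adjusted p = 0.316, and 0.0718 to 0.777 over the alternatives). Groups without overlap were found for 2 of the 10 members and for 20.4% of all tested genes. FADD had 22.2, 22.3 and 19.0 CPM in SnxB, with a log2 fold change of 0.15 (-0.05 to 0.34), and MAP3K14 had 9.57, 11.0 and 9.63 CPM, with -0.22 (-0.49 to 0.04). For both, a change as large as that of RIPK1 lies within the interval in the direction measured, as does no change. The remaining 6 members lay between -0.10 and 0.05, with CHUK at -0.00 (-0.11 to 0.10) and MAP3K7 at 0.03 (-0.08 to 0.13) the most tightly bounded. Among the other 52 pathway genes 1 was called, HSP90AA1, the chaperone that IKK and RIPK1 need for folding, at a log2 fold change of -0.14 (adjusted p = 0.00594). NFKBIA had 32.6, 29.9 and 29.8 CPM in SnxB (log2 fold change 0.17, adjusted p = 0.363), and TNFAIP3 2.96, 4.45 and 3.81 CPM (0.03, adjusted p = 0.9748). Of the 52 pathway genes 5 were called with the GC and length correction, and 4 of the 53 tested without TNF_SnxB libraries 2 and 3.

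In cells given TNF-alpha, Senexin B raised TAB2, and TAB2 was called under each of the 20 alternatives. TAB2 had 94.8, 98.3 and 103 CPM in TNF_SnxB, all above the 80.9 to 81.3 CPM of TNF, a log2 fold change of 0.28 (SE 0.0469), or 1.22-fold with a 95% interval of 1.14 to 1.30 (adjusted p = 8.73e-05 by edgeR). The change was 0.14 with the GC and length correction (adjusted p = 0.00403) and 0.22 without TNF_SnxB libraries 2 and 3 (adjusted p = 0.0176). In all 7 of the 10 members were called, 3 higher and 4 lower, where 27.2% of all tested genes were called, 13.3% higher and 13.9% lower. DESeq2 called 5. The groups did not overlap for 7 of the 10 members and for 32.1% of all tested genes. The count fell to 3 with the GC and length correction (11.4% of all tested genes) and to 1, TAB2, without libraries 2 and 3 (2.64%), where library 1 stands alone for its group and is assumed to vary like the others.

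CHUK and MAP3K7 were the other members that came out higher. CHUK had 96.6, 108 and 109 CPM in TNF_SnxB against 90.5 to 93.9 CPM in TNF, a log2 fold change of 0.18 (SE 0.0485, adjusted p = 0.00686), and MAP3K7 had 85.2, 87.3 and 91.6 CPM against 77.1 to 81.7 CPM, a change of 0.15 (SE 0.0469, adjusted p = 0.0168). For both, all 3 libraries lay above TNF, and for CHUK libraries 2 and 3 were the higher ones. With the GC and length correction both turned negative and lost the call, CHUK at -0.03 (adjusted p = 0.703) and MAP3K7 at -0.05 (adjusted p = 0.501). Without libraries 2 and 3 they were 0.06 (adjusted p = 0.739) and 0.11 (adjusted p = 0.460). Leaving out TNF_SnxB library 3 alone also ended the call of both (adjusted p = 0.0642 and 0.135), and leaving out TNF library 2 that of MAP3K7 (0.159).

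FADD was the member with the largest drop. It had 16.9, 15.1 and 16.7 CPM in TNF_SnxB, all below the 20.4 to 23.7 CPM of TNF, a log2 fold change of -0.42 (SE 0.0870), or 0.747-fold with an interval of 0.661 to 0.846 (adjusted p = 0.000955). FADD was called in 19 of 20 alternatives, at -0.24 with the GC and length correction (adjusted p = 0.0281), and missed the threshold without libraries 2 and 3, at -0.34 (adjusted p = 0.166). TNF_SnxB library 1 on its own, at 16.9 CPM, was below each TNF library.

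RIPK1 was lower with Senexin B here too, at 35.2, 37.2 and 38.3 CPM against 44.5, 42.0 and 38.5 CPM in TNF. The groups did not overlap but nearly touched, and the log2 fold change was -0.17 (SE 0.0617, adjusted p = 0.0431), called in 8 of 20 alternatives. It was -0.18 with the GC and length correction (adjusted p = 0.0151) and -0.24 without libraries 2 and 3 (adjusted p = 0.154), so its size did not shrink in either. The call ended without TNF library 1 or 2 (0.143 and 0.174) and without TNF_SnxB library 2 or 3 (0.104 and 0.0696). It also ended without DMSO library 1 or 2 or SnxB library 1 or 3 (0.0515 to 0.0550), which share only in the estimate of the spread. The drop in RIPK1 of SnxB against DMSO and this one come from libraries that do not overlap, and the difference between them, the interaction, was 0.11 (95% interval -0.08 to 0.30, adjusted p = 0.484).

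The remaining lower members, TNFRSF1A and MAP3K14, had smaller changes without TNF_SnxB libraries 2 and 3 and with the correction. For MAP3K14, library 1 also lay below each TNF library. TNFRSF1A had 30.7, 25.1 and 24.7 CPM in TNF_SnxB, so library 1 lay within the TNF range of 30.01 to 31.2 CPM and the other 2 below it. Its log2 fold change of -0.21 (SE 0.0705, adjusted p = 0.0275) was -0.00 without these 2 libraries (adjusted p = 0.995) and -0.11 with the GC and length correction (adjusted p = 0.263). MAP3K14 had 12.2, 11.0 and 9.22 CPM against 13.5 to 14.5 CPM, and its change of -0.36 (SE 0.110, adjusted p = 0.0151) was -0.17 without them (adjusted p = 0.720) and -0.20 with the correction (adjusted p = 0.207). MAP3K14 also lost the call without TNF_SnxB library 3 alone (adjusted p = 0.169) or TNF library 2 alone (0.0534), and TNFRSF1A without any single library of either group except TNF_SnxB library 1 (0.0519 to 0.215). TRADD (11.3, 8.14 and 10.0 CPM), IKBKB (29.1, 27.8 and 32.95 CPM) and IKBKG (9.44, 7.34 and 8.94 CPM) were called neither here nor in any of the 20 alternatives, with intervals of 0.757-fold to 1.05-fold, 0.871-fold to 1.06-fold and 0.744-fold to 1.01-fold.

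**Figure D4:**
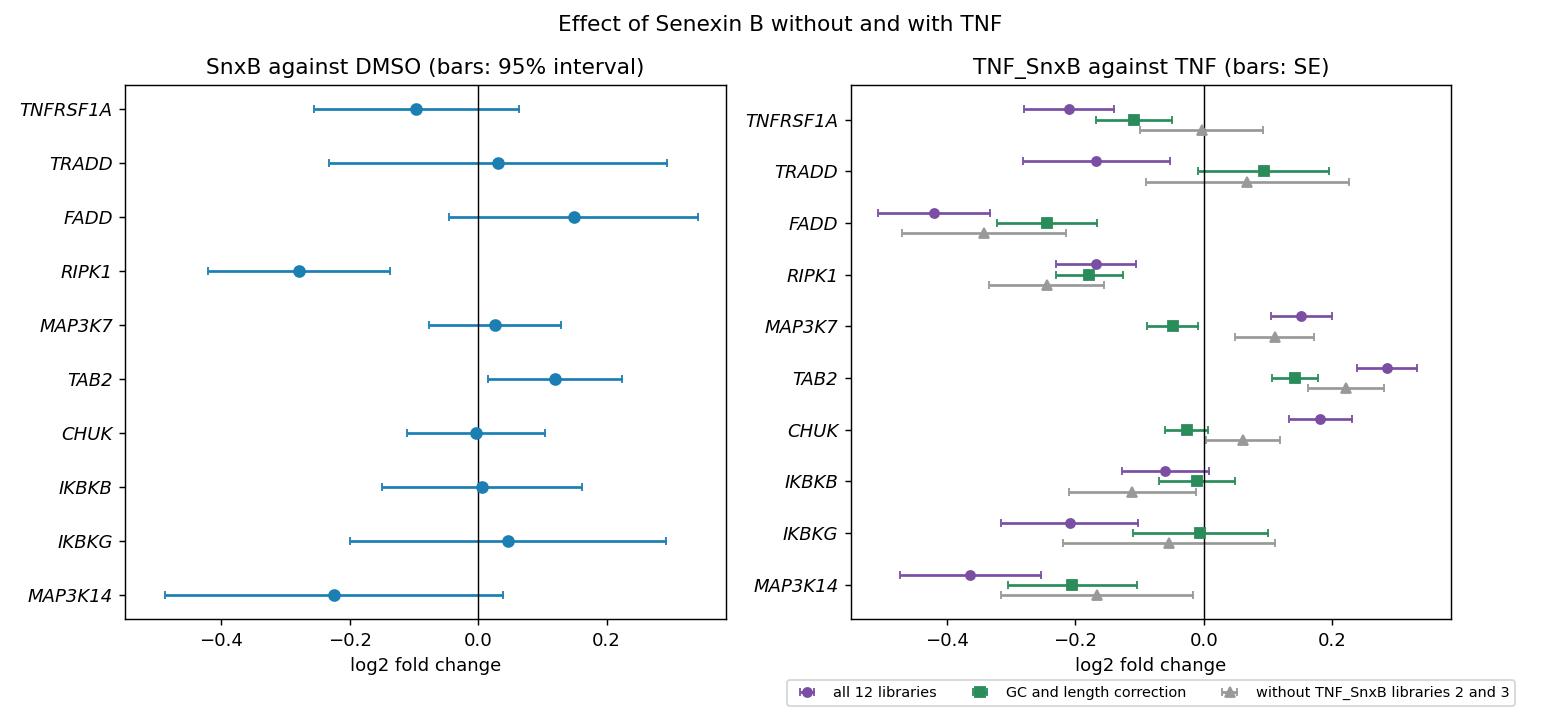
Log2 fold change of each gene (x axes) for SnxB against DMSO with its 95% interval (left), and for TNF_SnxB against TNF with its SE (right) from all 12 libraries, with the GC and length correction, and without TNF_SnxB libraries 2 and 3. On the left RIPK1 (-0.28) passed the test and the other 9 genes did not, and on the right TAB2 stays above 0 in all 3 versions (0.28, 0.14 and 0.22) while CHUK and MAP3K7 cross 0 with the correction.

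The direction of the 7 calls went with GC content. The 3 higher members, MAP3K7, CHUK and TAB2, have the lowest GC content of the 10 at 37.6%, 37.7% and 41.2%, and the 4 lower ones, RIPK1, TNFRSF1A, FADD and MAP3K14, have 48.8%, 56.3%, 58.6% and 59.4%, where the median of the tested genes is 49.2%. Within the TNF_SnxB group itself, the mean log2 CPM of libraries 2 and 3 minus that of library 1 was 0.07 for MAP3K7, 0.17 for CHUK, 0.08 for TAB2 and 0.10 for RIPK1, and it was -0.30 for TNFRSF1A, -0.33 for TRADD, -0.22 for IKBKG, -0.27 for MAP3K14 and -0.09 for FADD, with IKBKB (52.8% GC) at 0.06. All libraries of the group received the same treatment per the labels. For RIPK1 the difference within the group (0.10) and the change against TNF (-0.17) have opposite signs. The part of GC content in the calls was tested only by the correction and by leaving out these libraries, with the values given for each gene. Leaving them out does not remove the trend of the TNF libraries with GC content (Spearman 0.39 to 0.45).

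**Figure D5:**
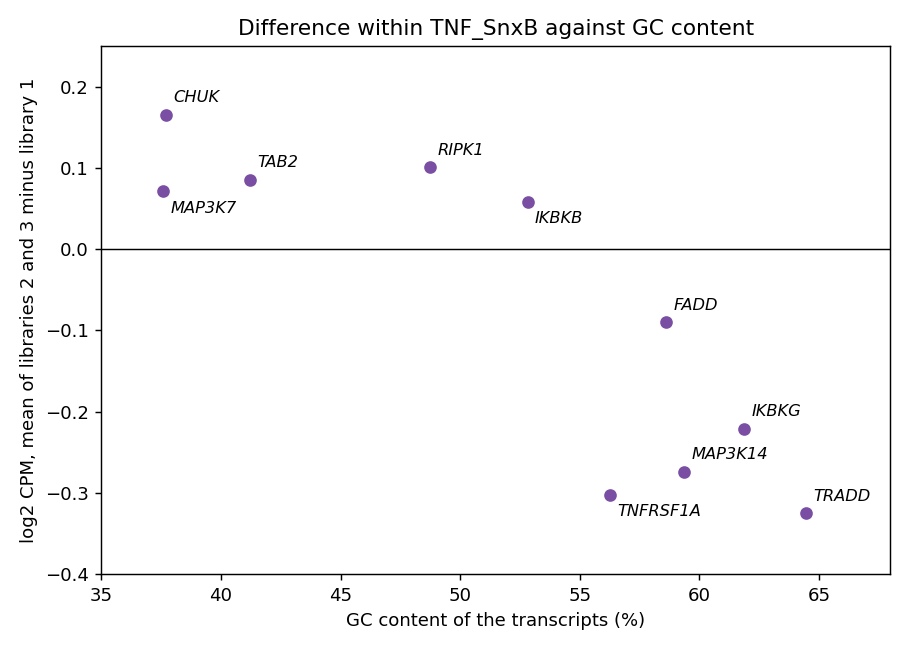
Difference between the mean log2 CPM of TNF_SnxB libraries 2 and 3 and that of library 1 (y axis) against the GC content of the transcripts in percent (x axis) for the 10 genes. The 5 genes up to 52.8% GC lie above 0 (0.06 to 0.17) and the 5 from 56.3% GC lie below (-0.33 to -0.09).

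Of the other 52 pathway genes, 22 were called in TNF_SnxB against TNF, 8 higher and 14 lower, which became 10 with the correction (5 in each direction) and 3 of the 53 tested without libraries 2 and 3. NFKBIA fell from 269 to 272 CPM in the TNF libraries to 188, 168 and 165 CPM, a log2 fold change of -0.65 (SE 0.0458) that was called in all 20 alternatives (-0.54 with the correction and -0.53 without libraries 2 and 3). TNFAIP3 had 37.5, 34.3 and 37.3 CPM against 41.4 to 44.4 CPM, at -0.22 (adjusted p = 0.0109, 0.00467 with the correction and 0.414 without libraries 2 and 3). BIRC2 (cIAP1), the constitutive ligase for RIPK1, rose in the same comparison by 1.30-fold (log2 0.38) and was called in all 20 alternatives (0.21 with the correction, 0.27 without libraries 2 and 3). ITCH, a ubiquitin ligase that works with TNFAIP3, was higher at 0.38 and TBK1, an IKK-related kinase, at 0.33. Both kept the call with the correction (0.22 and 0.14, adjusted p = 0.000117 and 0.0193) and missed the threshold without libraries 2 and 3 (0.202 and 0.174). SHARPIN, a subunit of the linear ubiquitin complex, at -0.24, CDC37, the kinase co-chaperone, at -0.24, and MAP2K3, a kinase below TAK1, at -0.26 were lower and lost the call with the correction (adjusted p = 0.853, 0.221 and 0.284) and without libraries 2 and 3 (0.616, 0.673 and 0.263). None of the 4 tested genes of the death branch was called (1 at an unadjusted p below 0.05).

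With Senexin B present, TNF-alpha went with higher CHUK and TAB2 and lower FADD, and these calls did not hold with the GC and length correction. In TNF_SnxB against SnxB, which asks how the response to TNF-alpha runs when the Mediator kinases are inhibited, 3 of the 10 members were called, where 14.2% of all tested genes were called, 7.38% higher and 6.83% lower. CHUK was higher at a log2 fold change of 0.20 (SE 0.0513, adjusted p = 0.0104) and TAB2 at 0.17 (SE 0.0492, adjusted p = 0.0199), and FADD was lower at -0.39 (SE 0.0963, adjusted p = 0.00963). For these 3 genes the groups did not overlap, as for 4 of the 10 members and 22.7% of all tested genes, with TNF_SnxB at 96.6 to 109 against 89.5 to 92.0 CPM for CHUK, 94.8 to 103 against 83.5 to 90.0 CPM for TAB2, and 15.1 to 16.9 against 19.0 to 22.3 CPM for FADD. With the GC and length correction 0 of the 10 were called, CHUK at 0.04 (adjusted p = 0.691), TAB2 at 0.06 (0.560) and FADD at -0.26 (0.0745), where 4.49% of all tested genes were called. Without libraries 2 and 3 again 0 were called (adjusted p = 0.734, 0.589 and 0.360), where 1.43% of all tested genes were. Each also lost the call without TNF_SnxB library 2 alone (0.0638, 0.0601 and 0.0681). So did CHUK without SnxB library 3 (0.0582) or TNF_SnxB library 3 (0.0818), TAB2 without SnxB library 1 or 3 (0.111 and 0.0547) or TNF_SnxB library 3 (0.142), and FADD without SnxB library 1 or 2 (0.0521 and 0.0593).

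The genes around and below the chain still rose in this comparison. NFKBIA rose 5.63-fold (log2 2.49), RELB 7.49-fold (log2 2.91) and NFKB2 2.84-fold, and 6 of the 8 IkB and NF-kB genes rose, with RELA at 0.03 and NFKBIB at 0.10 uncalled. TNFAIP3 rose 9.58-fold (log2 3.26), BIRC3 5.93-fold (log2 2.57), MAP3K8 3.09-fold (log2 1.63), CYLD 1.38-fold (log2 0.47), and TRAF3 by 0.48 on the log2 scale. BIRC2 rose 1.39-fold here (log2 0.48), from 37.9 to 39.4 CPM in SnxB to 50.05, 56.8 and 53.9 CPM, where in TNF against DMSO it had a log2 fold change of 0.11 (adjusted p = 0.553). These 9 genes named as rising were called in every alternative that gave an adjusted p, the correction and the fit without libraries 2 and 3 included. BIRC2 was 0.34 and 0.37 in those 2 fits and CYLD 0.35 and 0.30. Over the 52 pathway genes 18 rose and 4 fell, with the correction 18 rose and 0 fell, and without libraries 2 and 3 15 of 53 rose and 0 fell. TNF against DMSO and TNF_SnxB against SnxB share no libraries, while TNF_SnxB against TNF shares libraries with each of them, so these values are set side by side and not counted as separate support.

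The test of whether Senexin B altered the response to TNF-alpha, the interaction, called 1 of the 10 members, FADD, where 2.5% of all tested genes were called, 0.891% with a higher and 1.61% with a lower response. FADD had a log2 fold change of 0.18 with TNF-alpha alone and -0.39 with TNF-alpha under Senexin B, a difference of -0.57 (SE 0.129, 95% interval -0.83 to -0.30, adjusted p = 0.0282 by edgeR). The call held in 6 of 18 alternatives that gave an adjusted p. The difference was -0.40 with the GC and length correction (adjusted p = 0.179) and -0.49 without TNF_SnxB libraries 2 and 3 (adjusted p = 0.320), and the call ended when any 1 of DMSO libraries 1 and 3, SnxB libraries 1 to 3, TNF libraries 1 and 3 or TNF_SnxB libraries 2 and 3 was left out (adjusted p from 0.0539 to 0.115). The other 9 members lay between -0.26 and 0.18, of which CHUK (0.18, adjusted p = 0.118) and TAB2 (0.17, adjusted p = 0.146) had an unadjusted p below 0.05. Leaving out TNF_SnxB library 1 gave 4 called members, CHUK, FADD, MAP3K7 and TAB2, where the group is then made of libraries 2 and 3. In that fit 4534 of 15113 tested genes were called. With the correction 0 members and 0.209% of all tested genes were called.

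Outside the chain the interaction called 4 of the 52 pathway genes. NFKBIA, whose rise was smaller under Senexin B, had -0.82 (SE 0.0907, adjusted p = 1.28e-05) and was called in all 19 alternatives that gave an adjusted p (-0.71 with the correction and -0.70 without libraries 2 and 3). BIRC2 (0.37), ITCH (0.34) and SHARPIN (-0.41) were called with all 12 libraries and neither with the correction (adjusted p = 0.375, 0.380 and 0.736) nor without libraries 2 and 3 (0.528, 0.795 and 0.559). TNFAIP3 had -0.25 (adjusted p = 0.448). With the correction, the test of the difference thus passed for the inhibitor NFKBIA and for 0 of the 10 members. In that fit 0.209% of all tested genes were called, so 0 of 10 is near that share and sets no contrast with NFKBIA.

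For each member called in some comparison, the genes with the nearest profile over the 4 group means were listed, searched among the 11367 tested genes that averaged 5 CPM or more. Nearest to RIPK1 were CDC25A, BTG1 and HIST1H3H (root mean square distance 0.0082 to 0.016 on the log2 scale). CDC25A, a phosphatase of the cell cycle, had mean levels of 130, 108, 134 and 118 CPM in DMSO, SnxB, TNF and TNF_SnxB, the order that RIPK1 shows. Nearest to TAB2 were CHM, VCPIP1 and ARHGAP5. Among those nearest to CHUK were BDP1 and TRMT10C, and to MAP3K7 CD109 and ATP7A. These 7 genes have a GC content of 36.0% to 39.5%, below the median of the tested genes. Nearest to FADD were HMX1, ZNF579 and PDF, with a GC content of 62.2% to 72.6%. MAP3K14 lay nearest to FOSL2, MYCL and ZFP36L2 (52.9% to 58.0% GC), and TNFRSF1A to UBB, FKBP4 and NDUFS6 (52.2% to 55.2%). The genes nearest to RIPK1 were mixed in GC content, with CDC25A at 52.2%, BTG1 at 40.3% and HIST1H3H at 49.1%. With 4 group means per gene, such a likeness is a description and says nothing of shared function.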

How the data were processed

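RNA of HEK293 cells was extracted on Qiagen columns and made into 12 Illumina TruSeq libraries, per the labels. The table the authors deposited holds raw read counts, 1 row per gene symbol, not normalized. Per the submitters' processing notes the tools were STAR 2.4, SAMtools 1.2 and featureCounts of Subread 1.4.6, with build GRCh38 (hg38). Not given in the sources used here: their settings, the annotation and the strand option.

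The counts were filtered with filterByExpr (14822 of 56634 genes left, 25096 without a count), scaled by TMM and fitted with edgeR 4.0.16 (limma 3.58.1, R 4.3.3) as group means over all 12 libraries. Contrasts were tested two-sided with the quasi-likelihood F test, adjusted by Benjamini-Hochberg over all tested genes, and called at an adjusted p under 0.05. Intervals are 95% and come from the spread between libraries, so they do not cover a difference in preparation shared by a whole group. The floor of 3 counts does not cover library preparation. The GC and length correction used loess offsets per library from GENCODE 29 transcripts, which were found by symbol for 90.9% of those tested. Other alternatives were median-of-ratios size factors, DESeq2 1.42.0, no filter on low counts, a fit of only the groups compared, a block on the replicate number, and leaving out libraries. Figures were drawn with Python 3.11.15 and matplotlib 3.10.9. The tests were checked on simulated data with planted 1.5-fold and 2-fold changes. Per comparison 73% to 85% of the 1.5-fold changes were called, with 6 to 16 false calls. Changes as small as those measured for the members were not planted.

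The 10 members, the 7 lists of 60 other pathway symbols (59 in the table, 52 tested) and the alternatives were chosen with earlier results of these data known. Named are all members, in each comparison up to 3 called genes per list, by smallest adjusted p, NFKBIA and TNFAIP3 throughout, and the 3 genes nearest in profile to each called member. Where few of a list were called, other genes were named after their values were seen. Some genes that this rule or an overlap would name are not reported here.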

Additional observations from a re-analysis of the deposited data

Results flagged for a closer look

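FADD was the member for which the effect of TNF-alpha differed between cells without and with Senexin B by a test of the difference itself. The difference of the log2 fold changes was -0.57 (SE 0.129, adjusted p = 0.0282 by edgeR, n = 3 per group). It was -0.40 with the GC and length correction (adjusted p = 0.179) and -0.49 without TNF_SnxB libraries 2 and 3 (adjusted p = 0.320), and it passed the threshold in 6 of the 18 alternatives that gave an adjusted p. The exon bases that FADD shares with an antisense gene were counted without a stated strand, and their part in the result was not tested.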

How the results depend on the processing

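Over the 10 members and 5 comparisons, 983 alternative values were computed. Of these 902 stayed on their side of the threshold, 851 with the same sign and 51 uncalled in both with another sign, TRADD in TNF_SnxB against TNF among the latter (0.09 with the GC and length correction). A further 73 lost the call, 4 gained it and 4, called in the reported fit, changed sign. These 4 were MAP3K7 (-0.0486) and CHUK (-0.0268) in TNF_SnxB against TNF with the GC and length correction, and again with the replicate block added to it (-0.0620 and -0.0273). The cause was not tested beyond the correction itself.

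With the GC and length correction the count of all genes called was 593 for TNF against DMSO, 757 for SnxB against DMSO, 1687 for TNF_SnxB against TNF, 665 for TNF_SnxB against SnxB and 31 for the interaction. Members called were 3, 0 and 0 in the last 3, and other pathway genes 5 in SnxB against DMSO, 10 in TNF_SnxB against TNF and 1 in the interaction. With the replicate block and the correction in 1 fit, all genes called were 593, 790, 1708, 680 and 36 in the same order, members again 3, 0 and 0, and other pathway genes 5, 10 and 1. Without TNF_SnxB libraries 2 and 3 all genes called were 858, 864, 403, 219 and 19, members 1, 0 and 0 in the last 3, and other pathway genes 4 in SnxB against DMSO, 3 in TNF_SnxB against TNF and 1 in the interaction. With only the groups compared all genes called were 776, 742, 2442 and 504 for the 4 pairwise comparisons, members 4 in TNF_SnxB against TNF and 1 in TNF_SnxB against SnxB, and other pathway genes 4 in SnxB against DMSO. With no low-count filter the interaction gave 711 genes and SnxB against DMSO 2 other pathway genes. DESeq2 called 0 members in the interaction but gave no adjusted p for 5 of them, FADD included.

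The replicate numbers did not pair the libraries: over 18 pairs with the same number the deviations from the group means correlated by -0.04 to 0.09, and 6 of 12 libraries correlated best with their own number. The replicate block alone gave 291, 306, 4163 and 2203 genes in the pairwise comparisons, 736 in the interaction and 2 other pathway genes in SnxB against DMSO, and it changed no count of members (0, 1, 7, 3 and 1).

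Leaving out 1 library of the groups compared gave 177 to 243 genes for TNF against DMSO, 172 to 208 for SnxB against DMSO, 1869 to 6769 for TNF_SnxB against TNF, 512 to 5391 for TNF_SnxB against SnxB and 3 to 4534 for the interaction. The members called ranged from 0 to 0, 0 to 1, 2 to 7, 0 to 4 and 0 to 4, and the other pathway genes from 12 to 15, 0 to 1, 12 to 36, 17 to 34 and 1 to 23. Leaving out a library of a group not compared gave 278 to 874, 246 to 879, 3722 to 3927 and 1672 to 2014 genes, members 0 to 0, 1 to 1, 6 to 7 and 3 to 3, and other pathway genes 15 to 18, 1 to 4, 21 to 22 and 21 to 23. This last alternative and the block with the correction were chosen after seeing the data. The members with the fewest counts, IKBKG, TRADD and MAP3K14, had standard errors of 0.106, 0.115 and 0.109 in TNF against DMSO, against 0.0477 for MAP3K7.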
